A study of Amphiprion ocellaris with 30 samples.

Results

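The genes described here formed a staircase over the 3 treatments of the study: each stood highest in clownfish larvae given T3, lower in larvae given SR9243, and lowest in larvae given the solvent DMSO. Members were chosen by group means of the measured expression values: a gene was taken when its mean in SR9243 libraries exceeded its mean in DMSO libraries by at least 1, and its mean in T3 libraries exceeded its mean in SR9243 libraries by at least 1 more, on the deposited log2-like scale. The 200 genes with the highest mean over all 30 libraries were left out. The rule gave 68 members among the 22816 genes of the table. It used the group means of all libraries, so the staircase itself is a description of how the members were chosen and carries no test.

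The study sequenced RNA of Amphiprion ocellaris, a clownfish, in 30 libraries made from whole wild-type larvae 5 days after treatment began. The treatments, 10 libraries each, were T3 at 1e-07 M, SR9243 at 1e-07 M and DMSO (dimethyl sulfoxide) at 0.0001%, all given in sea water at 27°C in beakers. Whether the T3 and SR9243 larvae also received the solvent is not given. The titles of the T3 libraries carry a further tag, IOP, that the labels leave unexplained, so T3 here means the libraries so labelled. The labels give neither the number of larvae in a library nor its beaker or clutch, and p-values measure the spread between libraries, which may in part be technical.

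T3, triiodothyronine, is the active thyroid hormone. It binds the thyroid hormone receptors, nuclear receptors that sit on DNA as partners of the retinoid X receptors, and switches their target genes from repression to activation. In bony fishes it drives the change of the larva into a juvenile, and in clownfish it bears on the formation of the white bars. SR9243 is a synthetic ligand named in the series title as an LXR antagonist. LXR, the liver X receptor, also works as a partner of the retinoid X receptor and controls the handling of cholesterol and lipids.

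The table names genes by Ensembl identifier alone. None of these identifiers could be paired with a symbol in the reference gene table used here (0 of 22816), so no function is given to a member and no marker of a tissue or cell type could be checked. The members with the largest and the second largest T3 difference are named by identifier, and the others by their rank in that order, from 1 to 68. Values are variance-stabilised counts that are not divided by gene length, so a level is compared between groups of libraries and not between genes. Whether a higher level reflects more RNA per cell or more cells of some type cannot be told apart in whole larvae.

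ENSAOCG00000015745 led the class. Its level lay between 12.7 and 13.4 in T3 libraries (median 12.9) and between 9.49 and 11.6 in SR9243 libraries (median 10.7). In DMSO libraries it was at 9.45 in library 8, 9.11 in library 10, 7.71 in library 2, 5.58 in library 9 and 3.41 in library 3, and at 2.88, the lowest value of the table, in libraries 1, 4, 5, 6 and 7. The groups did not overlap, but DMSO library 8 came within 0.1 of SR9243 library 3, the lowest of its group. The T3 libraries were thus close together, whereas DMSO libraries ran from the lowest value of the table almost to the SR9243 level. The difference from DMSO was 8.04 with T3 (SE 0.68, limma) and 5.79 with SR9243 (SE 0.68), which put SR9243 libraries at 72.0% of the T3 difference, the highest share among the members. Both SEs take 1 error from all groups, though the SD of this gene was 0.27 in T3, 0.58 in SR9243 and 2.78 in DMSO libraries. They therefore do not describe the spread of any single group.

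ENSAOCG00000000554 had the largest second step. Its level was 12.2 ± 0.62 (SD, n = 10) in T3 libraries, 7.82 ± 0.70 in SR9243 libraries and 4.32 ± 0.69 in DMSO libraries. T3 libraries ran from 11.2 to 13.0 (median 12.4), SR9243 libraries from 6.85 to 9.03 (median 7.74) and DMSO libraries from 3.41 to 5.72 (median 4.26), without overlap. Here SR9243 libraries reached 44.4% of a T3 difference of 7.89 (SE 0.28). T3 exceeded SR9243 by 4.38 and SR9243 exceeded DMSO by 3.51.

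The next members in rank were smaller in size and mixed in shape. The member of rank 3 stood at 10.2 ± 0.34 in T3, 7.56 ± 0.85 in SR9243 and 4.23 ± 0.74 in DMSO libraries (SD, n = 10 each). The member of rank 6 stood at 9.79 ± 0.20, 6.68 ± 0.38 and 4.53 ± 0.67 in the same order of treatments, and neither of these members had overlapping groups. The member of rank 7 had most of its rise at the first step, with 9.55 ± 0.46 in T3, 8.0 ± 0.77 in SR9243 and 4.29 ± 1.30 in DMSO libraries. In contrast, the member of rank 9 had most of it at the second, with 9.73 ± 0.74 in T3, 6.44 ± 0.66 in SR9243 and 5.19 ± 0.74 in DMSO libraries, so that SR9243 reached 27.5% of the T3 difference. The libraries of the rank 7 member overlapped at both steps, and those of the rank 9 member between SR9243 and DMSO but not between T3 and SR9243.

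Over all 68 members the T3 difference from DMSO ran from 2.17 to 8.04, with a median of 3.35, while the median of all 22615 genes tested was -0.01. The SR9243 difference from DMSO ran from 1.03 to 5.79, with a median of 1.66 (all genes tested, -0.01). T3 exceeded SR9243 by 1.01 to 4.38, with a median of 1.49 (all genes tested, -0.00). The larger part of the rise fell on the first step in 46 members and on the second in 22. SR9243 libraries stood at a median of 53.1% of the T3 difference, with a lowest share of 27.1%. Both steps reached 2 in 8 members, those of ranks 1 to 6, 8 and 16. The comparisons share the DMSO and SR9243 libraries, so the sizes of the steps are not independent of each other.

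**Figure D1:**
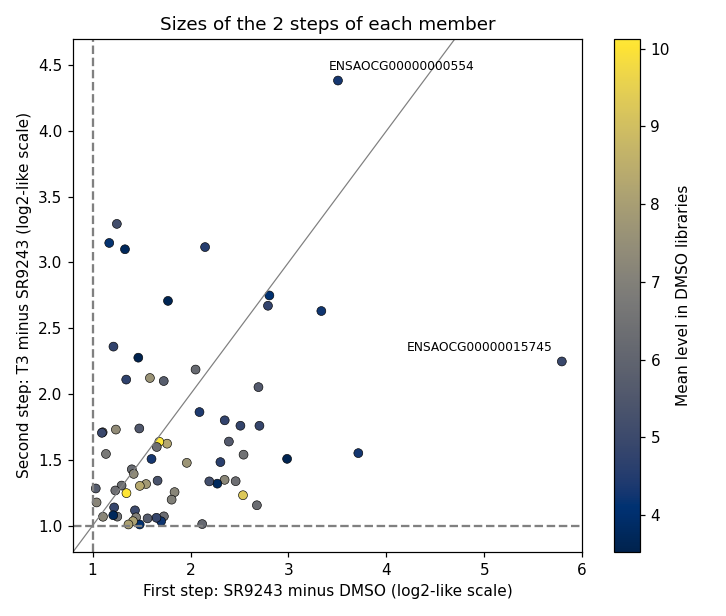
Sizes of the steps for the 68 members on the log2-like scale, with SR9243 minus DMSO on the horizontal axis and T3 minus SR9243 on the vertical axis. Dashed lines are the thresholds of 1, the solid line marks equal steps, and the colour is the mean DMSO level. Of the members, 46 lie below the solid line (larger first step) and 22 above it, and ENSAOCG00000015745 and ENSAOCG00000000554 stand apart at steps of 5.79 and 2.25, and of 3.51 and 4.38.

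The thresholds cut through a continuous range. The members nearest to the first threshold had SR9243 differences of 1.03 and 1.04, and the nearest genes outside it 0.99 and 0.99. Of genes that met the second condition, 14 had a first step between 0.9 and 1. The members nearest to the second threshold had T3 exceeding SR9243 by 1.01 and 1.01, and the nearest genes outside by 0.99 and 0.99. A gene just outside it had means of 13.1 in T3, 12.1 in SR9243 and 8.37 in DMSO libraries, a T3 difference from DMSO of 4.69. The limit on abundant genes removed 2 further genes, with T3 differences of 2.27 and 2.09.

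Group means hide how far single libraries kept to the staircase. T3 libraries all lay above all SR9243 libraries in 40 of 68 members, where 3.26% of all genes tested had this order. All SR9243 libraries lay above all DMSO libraries in 23 members (all genes tested, 1.19%). Both steps were free of overlap in 18 members (all genes tested, 0.19%), and both overlapped in 23. T3 and DMSO libraries did not overlap in 66 members (all genes tested, 7.08%). These orders follow from the same means as the rule, so they describe the class and support nothing about it. By limma with Benjamini-Hochberg adjustment over all genes, 68 members were called higher for T3 against DMSO (24.8% of genes called higher), 67 in SR9243 libraries over DMSO libraries (15%) and 67 in T3 libraries over SR9243 libraries (17.5%), and the same limit applies.

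**Figure D2:**
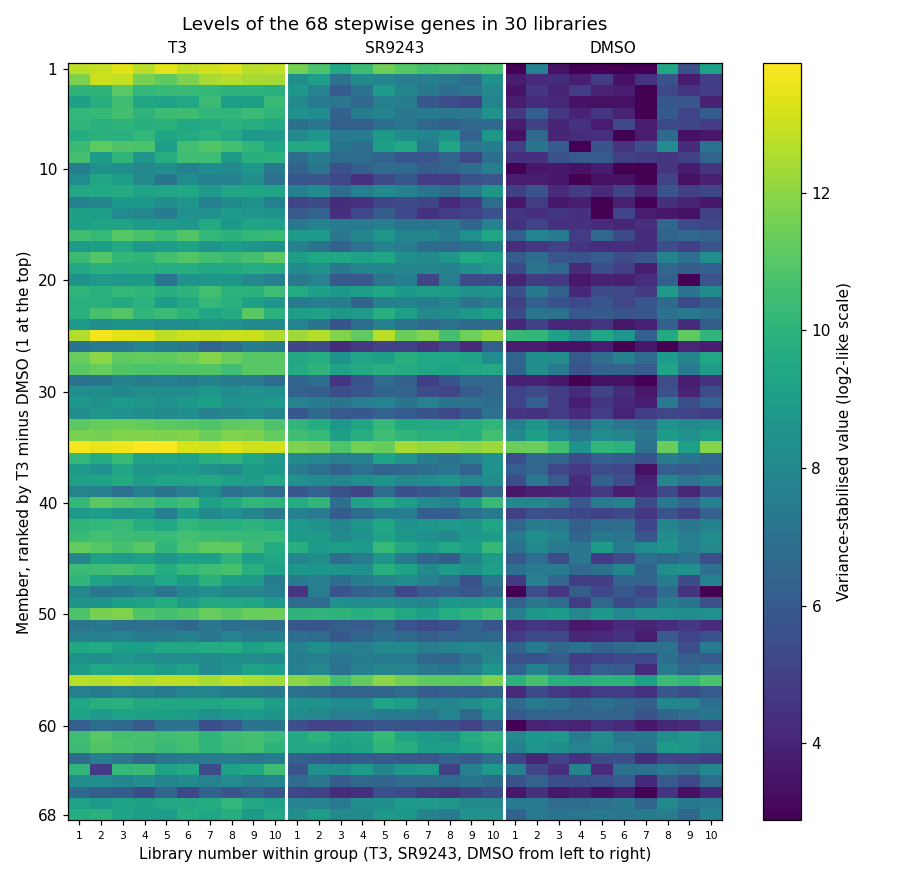
Level of each of the 68 members (rows, ranked by T3 minus DMSO with rank 1 at the top) in each of the 30 libraries (columns, T3, SR9243 and DMSO from left to right), as variance-stabilised values on a log2-like colour scale. T3 columns are brighter than DMSO columns without overlap in 66 rows. Within DMSO the brightest column is that of library 2, 8 or 10 in 57 rows, and all 3 exceed every other DMSO column in 25. These 3 libraries were picked by their member means, and no share over all genes is given for the 25 rows.

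The member of rank 64 was the one outside both of the last counts. Its T3 libraries lay at 9.19 to 10.5 except for library 7 at 5.43 and library 2 at 4.84, and its SR9243 libraries at 7.63 to 8.87 except for library 1 at 5.69 and library 8 at 5.04. Its DMSO libraries ran from 4.26 to 8.03 (median 6.94), with libraries 2, 3 and 5 at 5.22 or below. Low libraries thus occurred under every treatment for this gene, and its means of 8.88, 7.81 and 6.56 in T3, SR9243 and DMSO libraries stand for few of them. Its SD of 2.03 among T3 libraries was the largest of any member in that group.

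Most members also shared something that the rule did not use. Within DMSO and within SR9243 they moved up and down together from library to library, and much less so within T3 (correlations given below). The mean level over the 68 members was 9.42 ± 0.126 (SD, n = 10) in T3 libraries, 7.74 ± 0.342 in SR9243 libraries and 5.85 ± 0.58 in DMSO libraries. It ran from 9.20 to 9.65 with T3, from 7.24 to 8.16 with SR9243 and from 5.02 to 6.82 with DMSO. That these ranges do not overlap follows from the choice of members. The DMSO libraries were the most unlike each other in this mean. The rule sets the members' level low there. Other genes near that level had a median SD of 0.29 within DMSO, and so had all genes tested. Near the members' T3 level, other genes had a median SD of 0.15 within T3, where all genes tested had 0.22. The part of the level in the DMSO spread was not tested.

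**Figure D3:**
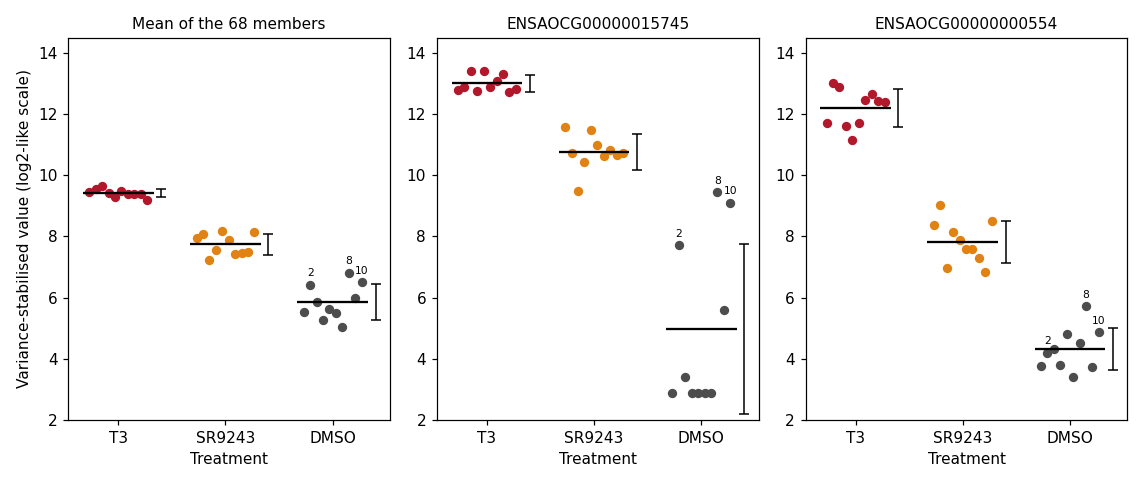
Level per library (points, in order of library number within a group) for the mean of the 68 members, for ENSAOCG00000015745 and for ENSAOCG00000000554, with T3, SR9243 and DMSO from left to right on the log2-like scale. Lines are group means, bars are 1 SD over 10 libraries, and DMSO libraries 2, 8 and 10 are numbered. The member mean spans 9.20 to 9.65 in T3 libraries but 5.02 to 6.82 in DMSO libraries, and the numbered libraries are the highest DMSO points for the mean and for ENSAOCG00000015745.

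In DMSO the same few libraries were high for most members. Library 8 had a member mean of 6.82, library 10 of 6.51 and library 2 of 6.41. The highest DMSO value was in one of these libraries in 57 of 68 members (83.8%), and in 24.9% of all genes tested. These libraries were picked by their member means, so the excess over all genes follows in part from that choice. Library 8, which has the highest member mean, was above its group's mean in 65 members. A high count follows in part from that, and the share over all genes is not given here. The lowest member mean, 5.02, was in library 7, which held the lowest DMSO value of 28 members (41.2%). A tie at the lowest value of the table was counted for the library with the lowest number only. Library 7 thus shared the lowest value in further members, ENSAOCG00000015745 among them, that are not in this count. Of all genes tested, library 7 held the lowest DMSO value in 25.0%, counted in the same way, and the highest in 25.0%. It held the highest DMSO value of 0 members. Library medians ran from 6.80 to 6.84 over the 10 DMSO libraries, and 558 to 701 genes per library were at the lowest value, with 634 in library 8, 643 in library 10 and 626 in library 2.

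Several members were at the bottom of the table in some DMSO libraries and well above it in others. A DMSO library was at the lowest value of the table in 16 members (23.5%; all genes tested, 6.50%), and 27 such values were found in all, 9 of them in library 7. No T3 or SR9243 library was at that value for any member, where 6.79% of all genes tested had such a library in T3 and 6.69% in SR9243. The rule asks for T3 and SR9243 means above the DMSO mean, so these counts follow in part from the choice of members. A value there can be a failed estimate as well as a missing transcript, and the depth is unknown. Beside ENSAOCG00000015745, the member of rank 8 ran from 2.88 to 8.19 within DMSO (median 5.58), while it stood at 9.06 to 11.1 in T3 libraries and at 6.83 to 9.58 in SR9243 libraries. Its highest DMSO value was again in library 8, inside the range of the SR9243 libraries.

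This co-movement was described by the correlation of each pair of members over the 10 libraries of a group, 2278 pairs in all. The median correlation was 0.12 within T3, 0.40 within SR9243 and 0.52 within DMSO, while the median over all pairs of genes tested lay within 0.001 of 0 in each group. Pairs above 0.5 made up 16.0% within T3, 38.1% within SR9243 and 52.4% within DMSO. Pairs of all genes tested also reached such values. In the first bin above 0.5, centred on 0.55, lay 6.72%, 11.5% and 12.5% of member pairs in T3, SR9243 and DMSO. Of all pairs of genes tested, 4.25%, 4.47% and 4.90% lay in that bin. The bins centred on 0.65, 0.75, 0.85 and 0.95 held a further 2.74%, 1.45%, 0.53% and 0.08% of all pairs in T3. In SR9243 they held 3.07%, 1.77%, 0.74% and 0.12%, and in DMSO 3.76%, 2.59%, 1.42% and 0.32%. The whole share of all pairs above 0.5 was thus larger than that of the first bin, and each of these bins held most in DMSO. Members of a library share its depth and scaling, and pairs share genes, so these are descriptions without a p. The 130 other genes that T3 raised by at least 2 had medians of 0.02, 0.22 and 0.28 in the same 3 groups. The difference between these sets was not tested.

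**Figure D4:**
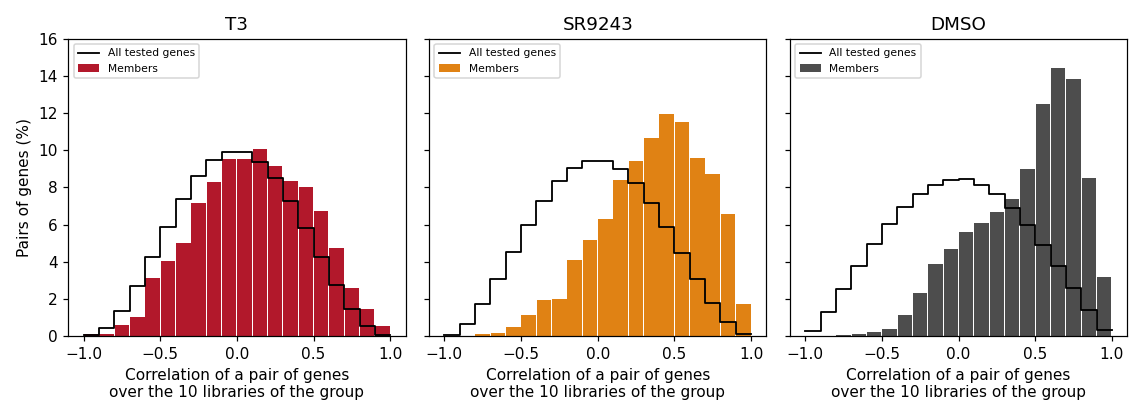
Share of gene pairs (%) by their correlation over the 10 libraries of a group, for the 2278 pairs of members (bars) and for all pairs of tested genes (line), in T3, SR9243 and DMSO libraries from left to right. The bars lie furthest to the right in DMSO, with a median of 0.52, and nearest to the line in T3, with a median of 0.12.

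The DMSO value did not rest on a single library: it stayed between 0.45 (without library 8) and 0.56 when each was left out in turn, and was 0.46 without libraries 4 and 7, the farthest from the mean of their group over all genes tested (root mean square distances of 0.44 and 0.72, and 0.29 to 0.39 for the other 8). It fell to 0.29 without libraries 2, 8 and 10 together, a choice made from the member levels themselves. Within SR9243 it lay between 0.38 (without library 3) and 0.44.

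Most but not all members took part. Set against the mean of the other members, 55 of 68 had a correlation above 0.5 within DMSO, 45 within SR9243 and 25 within T3. In both SR9243 and DMSO 38 passed. The share of all genes tested that passed is not given here, so these counts have no background. The highest DMSO values were 0.97 for the members of ranks 21, 28 and 31. ENSAOCG00000015745 had 0.09 within T3, 0.67 within SR9243 and 0.93 within DMSO, and ENSAOCG00000000554 had 0.32, 0.75 and 0.57. Within DMSO 6 members were below 0, among them those of ranks 9 and 64, at -0.08 and -0.02. The 13 members at or below 0.5 in DMSO had a median T3 difference of 2.80 and the other 55 one of 3.53, a split made from the data and not tested.

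The libraries were also placed by the remaining genes. Each library was projected, without the members, on an axis that set the mean of the other DMSO libraries at 0 and that of the other T3 libraries at 1. A gene counts on this axis by the size of its own T3 difference, so those most like the members weigh more than most. They include the 130 other genes raised by at least 2, of which 63 also had an SR9243 difference of at least 1. The 130 genes had a median pair correlation with each other of 0.28 within DMSO, and their correlation with the members is not given here. Both placements use the same libraries, and genes like the members weigh much on the axis. The 2 placements are therefore not taken as independent. DMSO libraries 10, 8 and 2, with the highest member means, were also the 3 highest on this line, at 0.25, 0.19 and 0.12. Library 1 came close behind at 0.10, yet its member mean of 5.53 was below the group's mean of 5.85. Libraries 7 and 4, with the lowest member means, were the lowest, at -0.21 and -0.05. Among SR9243 libraries, library 3 was lowest on both, with a member mean of 7.24 and a position of 0.28, and library 10 was highest on the line, at 0.58, with a member mean of 8.15, but library 5, with the highest member mean of 8.16, stood at 0.50, below library 6 at 0.51. Among T3 libraries, library 10 was lowest on both, with a member mean of 9.20 and a position of 0.91. At the top the T3 orders differed: library 3 had the highest member mean, 9.65, and stood at 0.99. Library 1, with a member mean of 9.47, led the line at 1.04. At both ends of the DMSO group the member means and the other genes thus placed the same libraries, but they did not place library 1 alike. The reason was not tested.

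The spread of single members narrowed in the order of their rise. The median SD of a member was 0.33 in T3, 0.49 in SR9243 and 0.71 in DMSO libraries, against 0.22, 0.23 and 0.29 for all genes tested. The SD was smaller in T3 than in DMSO libraries in 63 members (92.6%; all genes tested, 71.8%), and it fell in the full order DMSO, SR9243, T3 in 44 (64.7%; all genes tested, 33.3%). The level moved with it. Other genes within the middle range of the members' levels in each group had median SDs of 0.15 in T3, 0.19 in SR9243 and 0.29 in DMSO libraries. The members' median was 2.20 times that in T3, 2.55 times in SR9243 and 2.44 times in DMSO libraries, so beside genes of similar level the members were more variable in each group by a similar factor. The order was not particular to the members. The 130 other genes that T3 raised by at least 2 had median SDs of 0.32 in T3, 0.38 in SR9243 and 0.61 in DMSO libraries. Their median DMSO level was 6.33, where that of the members was 5.66.

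**Figure D5:**
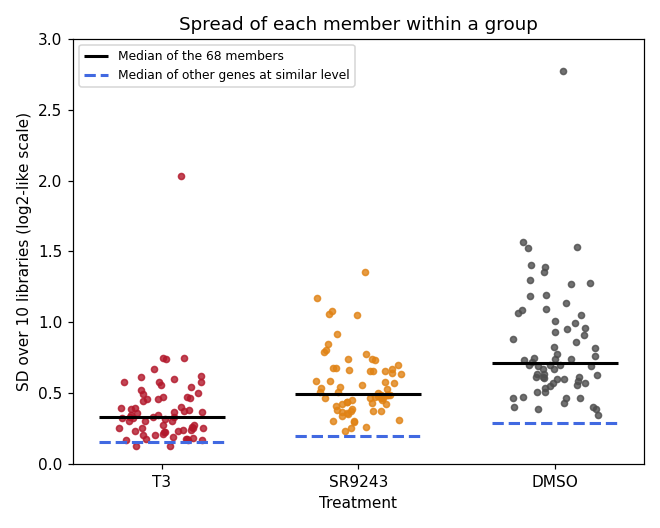
SD of each of the 68 members over the 10 libraries of a group (points, log2-like scale), for T3, SR9243 and DMSO from left to right. Solid lines are the members' medians (0.33, 0.49 and 0.71), and dashed lines the medians of other genes whose level in that group lay within the members' middle range (0.15, 0.19 and 0.29).

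A test of spread, limma on the absolute deviations from the group median over all genes, called a smaller spread with T3 than with DMSO for 4 members, where 0.084% of all genes tested were called (19 genes). These were the members of ranks 19, 21, 28 and 38, with limma adjusted p between 0.0402 and 0.0425. The member of rank 19 had an SD of 0.12 in T3, 0.43 in SR9243 and 1.09 in DMSO libraries, and its T3 libraries lay between 9.45 and 9.85. The member of rank 21 had SDs of 0.24, 0.36 and 1.53 in the same order. These calls were not robust: with each library left out in turn 0 to 3 members were called, and 0 for 24 of the 30 libraries, every T3 and SR9243 library among them. With a library left out, the median of its group is itself a measured value, so a deviation of 0 is fixed for each gene. The part of this in the lower counts was not tested. At an unadjusted p below 0.05, 32 members had a smaller spread with T3 than with DMSO (47.1%; all genes tested, 9.34%) and 0 a larger one. No member was called between SR9243 and DMSO (0.0265% of genes called) or in the comparison of T3 with SR9243 (0.0% of genes called), with 15 (22.1%; all genes tested, 7.57%) and 5 (7.35%; all genes tested, 1.93%) at an unadjusted p below 0.05. The part of the level in these calls was not tested.

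Libraries 1 to 5 and 6 to 10 of a treatment were known from earlier results of these data to differ in many genes, a division that no label explains. With all treatments in 1 fit, T3 libraries 1 to 5 against 6 to 10 differed in 713 genes (3.15% of those tested), SR9243 libraries 6 to 10 against 1 to 5 in 863 genes (3.82%) and DMSO libraries 1 to 5 against 6 to 10 in 17 genes (0.0752%), by limma adjusted p. No member was called in any of the 3, and 0, 1 and 4 members had an unadjusted p below 0.05, where 11.4%, 15.9% and 7.30% of all genes did. That fit takes 1 error per gene from all groups, so the wide DMSO spread of the members enters their T3 and SR9243 comparisons, and the 0 says little about them.

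Fitted within each treatment alone, limma called 1 member for T3 (4.47% of genes called), 1 for SR9243 (4.99%) and 0 for DMSO (0.0%). It was the member of rank 35 in both. Its T3 libraries 1 to 5 lay at 13.5 to 13.9 and libraries 6 to 10 at 13.1 to 13.4, and the means differed by 0.52 (SE 0.089; adjusted p = 0.0033 by limma). Its SR9243 libraries 6 to 10 lay at 12.0 to 12.4 and libraries 1 to 5 at 10.8 to 11.7, and the means differed by 0.78 (SE 0.14; adjusted p = 0.0055 by limma). It was also the only member whose library numbers did not overlap in T3 or in SR9243, where 5.97% and 7.03% of all genes tested did not. At an unadjusted p below 0.05 in these fits there were 10 members (14.7%; all genes tested, 16.6%) for T3, 8 (11.8%; all genes tested, 20.6%) for SR9243 and 0 (all genes tested, 2.97%) for DMSO.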

How the data were processed

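The values deposited by the authors are normalised counts after variance stabilisation, on a log2-like scale from 2.88 to 18.7, with 22816 Ensembl gene identifiers in 30 libraries. The submitters' processing notes name kallisto 0.46.1 and FastQC 0.11.8. Genome build, annotation release and transformation tool: not given in the sources used here. No library total accompanies the values and the depth is unknown. All 30 columns were matched to samples by name. No pair of libraries held identical values.

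Members followed the rule given above, on group means. Tests covered the 22615 genes, all 68 members among them, that exceeded the lowest value in 10 or more libraries (R 4.3.3, limma 3.58.1, eBayes with a trend, treatment as the only factor, two-sided, Benjamini-Hochberg adjustment, threshold 0.05). Fits were tested on simulated data. Library-number comparisons used 1 mean per treatment and number range. The spread test, the pair correlations the position and distance of libraries and the members' calls within 1 treatment were added after seeing the data.

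The rule for named genes was: members matched to a symbol, or else the 2 with the largest T3 difference by identifier and the others by rank. As no identifier matched (0 of 28286 reference genes carry an Ensembl identifier), the second case held, and the 16 gene lists, the marker lists and the promoter motifs could not be applied. Members not ranked 1 or 2 were picked for description after their values were seen. Members and lists were chosen with earlier results of these data known. Same-numbered libraries of different groups correlated above 0.1 in 7 of 30 pairs (lowest -0.28), so numbers were not taken to pair them. Alternatives were other scalings, filters, variance models, thresholds, group medians, a replicate block and leaving out libraries.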

Additional observations from a re-analysis of the deposited data

Results flagged for a closer look

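Among the members described singly, the member of rank 3 had 1 library apart from the other 9 of its group: T3 library 3, at 11.07, where the gap to the next library exceeded the critical share of the group's range for 10 libraries. Over all members, 6 of 204 sets of 10 libraries had such a gap, 2 each in T3, SR9243 and DMSO, where chance alone flags about 1 in 20 sets (10.2 here).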

How the results depend on the processing

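The number of members, 68, was 65 with library medians set equal, 69 with quantile normalisation, 72 with group medians in place of means, 46 with both thresholds at 1.2, 154 with both at 0.8, and 66 without DMSO libraries 4 and 7. Leaving out each library in turn gave 64 to 77, with at least 60 of the 68 kept. With a replicate block, limma called 11131 genes between T3 and DMSO, 6197 between SR9243 and DMSO and 7453 between T3 and SR9243, close to the 11430, 6568 and 7841 without it. Leaving out each library gave 11046 to 11635, 5852 to 7240 and 6908 to 8868. Among the comparisons by library number, that within T3 gave 580 to 900 genes, that within SR9243 gave 609 (without SR9243 library 7) to 1313 (without DMSO library 7; 1495 without DMSO libraries 4 and 7), and that within DMSO gave 4 (without DMSO library 1) to 84 (without DMSO library 5), 6 with quantile normalisation and 0 with the DMSO libraries fitted alone (671 at an unadjusted limma p below 0.05); the cause was not tested. No member was called in these 3 comparisons with any 1 library left out, without DMSO libraries 4 and 7, or under the other scalings, but 1 was called within T3 and 1 within SR9243 with that treatment's libraries fitted alone. Genes called for a different spread with T3 than with DMSO numbered 23, and 1 (without DMSO library 2) to 13 (without DMSO library 7) with each library left out. The limit given with the spread test, on the median of a shortened group, applies to these counts. The depth is unknown, so its limit on low members could not be set.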

Other observations

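Genes outside the class that followed the members' mean within DMSO were also collected, after the data had been seen. At a correlation of at least 0.8 over the 10 DMSO libraries there were 246 such genes, and at -0.8 or below 239. Pairs of all genes tested reached such values too. In DMSO the bins centred on 0.85 and 0.95 held 1.42% and 0.32% of these pairs. Those centred on -0.85 and -0.95 held 1.31% and 0.25%. The numbers of genes are therefore not read as a result about the members, here or in the lists from SR9243 and T3. No DMSO mean enters the comparison of T3 with SR9243. Its error per gene is taken from all groups, so its calls are not independent of the DMSO libraries. In this comparison 26.8% of the 246 were called higher with T3 and 12.6% lower (limma adjusted p). Of the 239, 5.86% were called higher and 41.4% lower, and of all genes tested 17.5% higher and 17.1% lower. Without DMSO libraries 4 and 7 the lists grew to 390 and 434 genes, with 15.9% higher and 23.1% lower in the first and 11.3% higher and 37.6% lower in the second. Without DMSO library 8 they held 289 and 372 genes, with 36.7% higher and 6.23% lower in the first and 8.06% higher and 32.8% lower in the second. The share of higher calls among genes that rose with the members thus differed between these choices of DMSO libraries. A cut of 0.8 is passed more easily over 8 or 9 libraries than over 10. The looser cut and the choice of libraries cannot be told apart here. The corresponding lists within SR9243 held 155 and 69 genes. In the first 43.9% were called higher and 1.29% lower, and in the second 1.45% higher and 49.3% lower. Over the 9 libraries without SR9243 library 3 the lists grew to 425 and 201 genes, and the cut was looser there too. The first then had 19.8% higher and 11.8% lower, and the second 18.4% higher and 16.9% lower. The lists from DMSO and from SR9243 shared 10 genes that rose and 1 gene that fell with the members. The lists within T3, at the same correlations, had other shares. Of the 71 genes that rose with the members there, 11.3% were called higher with T3 than with SR9243 and 32.4% lower. Of the 45 genes that moved opposite to the members, 10 were called higher and 9 lower. Members moved little together within T3 (median pair correlation 0.12), and their mean had an SD of 0.126 there. In T3 the bins centred on 0.85 and 0.95 held 0.53% and 0.08% of all pairs of genes tested. The T3 lists can therefore not show whether genes that follow the members have a direction of their own. The reason for the different shares was not tested.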
